A study of Mus musculus with 16 samples.

Results

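Messenger RNA of the 2 corticosteroid receptors, Nr3c1 and Nr3c2, and of 7 genes known to respond to glucocorticoid, Sgk1, Fkbp5, Tsc22d3, Zbtb16, Cdkn1a, Errfi1 and Hif3a, was followed in the whole brains of adolescent mice that drank nicotine, ethanol, both or neither. The 9 genes were chosen by name, with earlier results of these same data known, among them the higher level of Sgk1 in mice that drank ethanol, so that difference is given below as a description without a test. They were 9 of 24062 genes in the table of read counts and 9 of 23991 in the table of FPKM, a level scaled by transcript length and by library size, and all 9 were found in both. No exon of any of the 9 overlapped an exon of another gene in the annotation.

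All 16 mice were female C57BL/6J animals taken at postnatal day 45, and the tissue was the whole brain with the cerebellum. The WW group drank water throughout. The NW group had bottles with 200 µg/ml nicotine for 22 h a day and water in the remaining hours, starting 6 days before the ethanol phase and continuing through it. The Water-Ethanol group had water in place of nicotine and then 20% v/v ethanol on 4 days of Drinking-in-the-Dark, a limited-access schedule, for 2 h on the first 3 days and 4 h on the last. The NE group had both the nicotine bottles and the ethanol sessions. The paper reports that NE mice drank more ethanol than Water-Ethanol mice on the last day and reached higher blood ethanol. Nicotine and the amount of ethanol therefore cannot be told apart in NE against Water-Ethanol or in the interaction. Each group held 4 mice, a subset of those in the behavioral experiment, and libraries held 27100352 to 32880979 counts.

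Corticosterone, the main glucocorticoid of the mouse, is released by the adrenal gland under the control of the hypothalamus and pituitary and enters the brain freely. It binds the mineralocorticoid receptor, encoded by Nr3c2, with high affinity and the glucocorticoid receptor, encoded by Nr3c1, with lower affinity, so that the latter is occupied mainly during stress and at the daily peak. The bound receptor leaves its chaperones, enters the nucleus and acts on target genes, in part at glucocorticoid response elements made of facing half-sites. Some targets close feedback loops: Fkbp5 encodes a co-chaperone that lowers the affinity of the receptor for hormone. Others encode enzymes and regulators in many cell types, glia included.

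The letters of a glucocorticoid response element are shown first because 7 of the 9 genes were chosen as known to respond to glucocorticoid. Whether the receptor acted on them in these mice was not tested. RefSeq windows from 250 bases before to 50 after a gene's start, on the build GRCm38.p6, were present for 7 of the 9 genes, with 16 windows in all, and none was used for Nr3c1 or Zbtb16. They were searched on both strands for the palindrome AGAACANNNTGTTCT and for its half-site AGAACA, which lies within it. The palindrome was found in 3 of 32851 windows of all genes, or 0.00913%, and 1 of these belonged to Sgk1. The half-site was found in 6233 of all windows (19%) and in 4 of the 16 windows of the members (25%). The half-site windows belonged to Sgk1, with 3 of its 6 windows, and to Tsc22d3, with 1 of 3. The 250 bases before each of these 4 starts are printed 5′ to 3′ along the strand of the gene, with matches in capitals. In the first, the run of capitals 189 bases before the start is the palindrome.
Sgk1, chr10:21993640-21993889, plus strand: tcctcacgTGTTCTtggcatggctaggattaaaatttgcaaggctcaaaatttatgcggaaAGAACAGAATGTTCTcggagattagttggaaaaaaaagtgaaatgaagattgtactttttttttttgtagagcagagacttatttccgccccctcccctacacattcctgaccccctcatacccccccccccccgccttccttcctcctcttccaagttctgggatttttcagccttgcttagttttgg
Sgk1, chr10:21991973-21992222, plus strand: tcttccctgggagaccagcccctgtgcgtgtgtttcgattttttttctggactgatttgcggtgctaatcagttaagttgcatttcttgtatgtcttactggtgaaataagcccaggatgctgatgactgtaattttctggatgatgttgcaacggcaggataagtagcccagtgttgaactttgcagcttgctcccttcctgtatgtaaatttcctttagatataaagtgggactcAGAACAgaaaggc
Sgk1, chr10:21881934-21882183, plus strand: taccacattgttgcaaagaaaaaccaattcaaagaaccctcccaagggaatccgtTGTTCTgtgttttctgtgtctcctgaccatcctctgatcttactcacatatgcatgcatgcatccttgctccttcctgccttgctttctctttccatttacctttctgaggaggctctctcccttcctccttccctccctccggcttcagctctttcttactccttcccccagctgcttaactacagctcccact
Tsc22d3, chrX:140600523-140600772, minus strand: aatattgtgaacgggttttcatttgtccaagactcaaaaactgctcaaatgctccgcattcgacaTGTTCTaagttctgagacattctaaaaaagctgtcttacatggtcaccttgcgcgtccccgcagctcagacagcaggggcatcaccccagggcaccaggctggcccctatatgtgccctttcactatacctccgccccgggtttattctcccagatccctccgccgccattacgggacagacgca
No match was found in these windows of Nr3c2, Fkbp5, Cdkn1a, Errfi1 or Hif3a, which says only that these letters were absent there. A match is a description of the sequence, and binding was not measured.

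Some libraries stood apart in markers of brain regions. In normalized counts, which are read counts scaled to a common library size, the cerebellar granule cell marker Gabra6 had 1067 in WW mouse 21 and 1648 in NW mouse 10, against 3413 to 4489 in the other 14 mice. NW mouse 10 had 240.4 counts of the pituitary hormone gene Prl, WW mouse 19 had 48.0, and the others had at most 1.08. Rn45s, a ribosomal RNA precursor, took 3.9% of the counts in NW mouse 10 and 0.274 to 1.37% in the other 15 mice. NW mouse 10 was the highest NW mouse for Sgk1, Zbtb16 and Hif3a, and the part of these differences between libraries in the NW values was not tested. Without WW mouse 21 the log2 fold change (LFC) in Water-Ethanol against WW was 0.36 for Sgk1 and 0.38 for Hif3a, where all mice gave 0.42 and 0.47. The defining markers of brain cell types were present in all groups, while 4 of 5 blood markers, the globin genes, were at 0 in every mouse. The paper names another globin gene, Hbb-b1, among its differentially expressed genes with ethanol. These zeros therefore give no measure of blood in the tissue, and their cause was not tested.

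On the FPKM scale, which divides by transcript length and so allows genes to be compared, Tsc22d3 had the highest level of the 9, with 54.3 ± 3.37 FPKM over the 16 mice (SD). Tsc22d3 encodes GILZ, a leucine zipper protein induced by glucocorticoid. Sgk1, which encodes a serine/threonine kinase that regulates ion channels and transporters, had 28.7 ± 6.24 FPKM, and Nr3c1 had 26.4 ± 1.5. Errfi1, an inhibitor of the epidermal growth factor receptor, had 14.7 ± 0.989, and Cdkn1a, which encodes the cell cycle inhibitor p21, had 12.4 ± 1.29. Fkbp5 had 10.5 ± 1.27 and Nr3c2 10.4 ± 0.386. Zbtb16, a zinc finger transcription factor also called PLZF, had 6.34 ± 0.647. Hif3a, a hypoxia-inducible factor subunit that can restrain the other subunits, was the lowest at 0.804 ± 0.273. The ranges over mice of Sgk1 and Nr3c1, of Errfi1 and Cdkn1a, of Cdkn1a and Fkbp5, and of Fkbp5 and Nr3c2 overlapped, so these neighbors were not separated in the order. By CPM (read counts scaled to the library) per kilobase of the listed length, Nr3c1 (25.5) stood above Sgk1 (16.8) and Nr3c2 (10.2) above Fkbp5 (9.89).

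**Figure D1:**
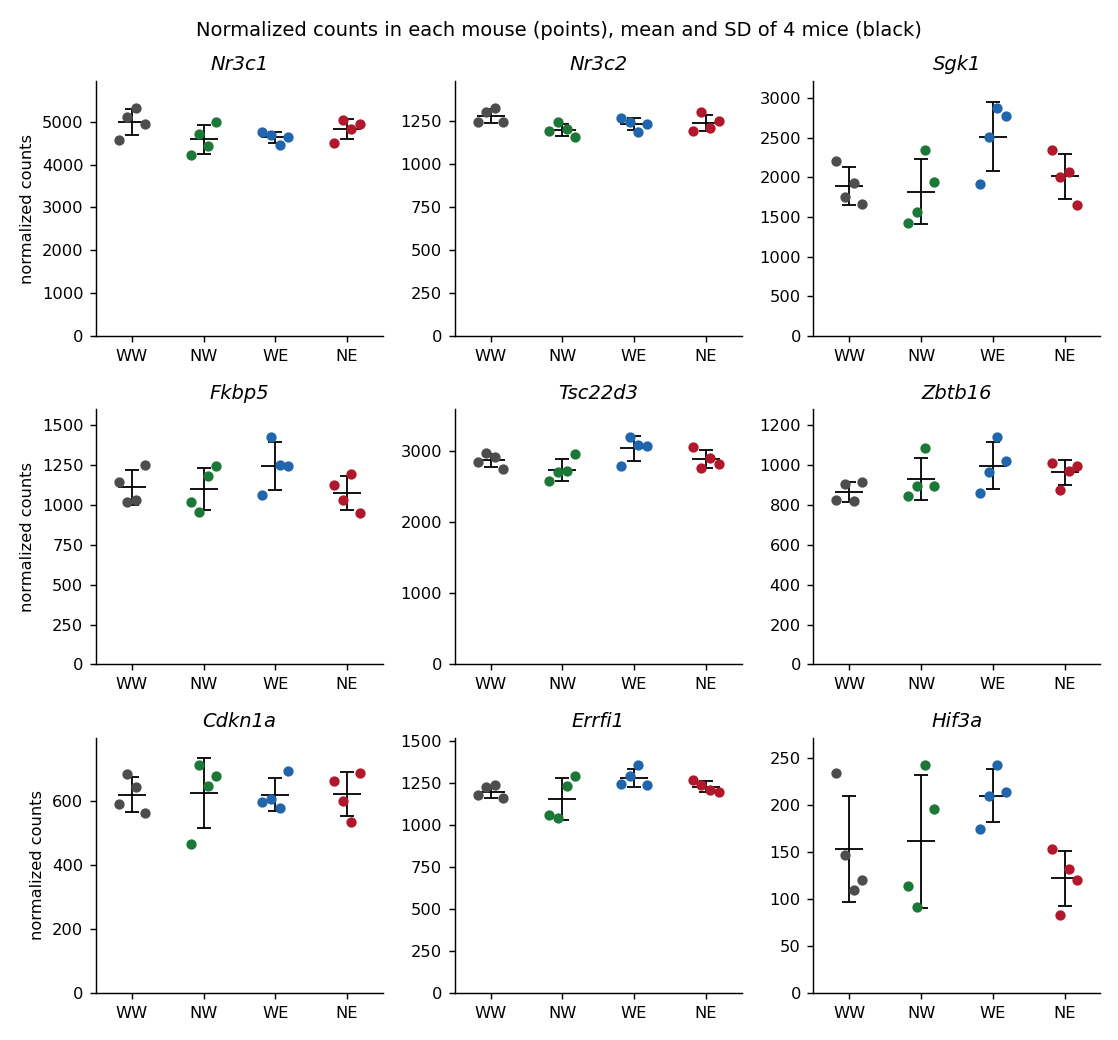
Normalized counts (y axis, from 0, library size scaled) of each of the 9 genes in each mouse (points) of the WW, NW, Water-Ethanol (blue, the third label) and NE groups (x axis), with the mean and SD of 4 mice in black. The receptor genes lie in narrow bands, 4229 to 5313 for Nr3c1 and 1154 to 1320.5 for Nr3c2, whereas Sgk1 and Hif3a spread within and between groups.

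For both receptor genes, 0 of 8 comparisons passed the test. Among all genes tested, 0 to 4.5% passed in these comparisons, so this count is no result about the receptors. Nr3c1, on chromosome 18 from 39410545 to 39487245 on the minus strand (mm10), had a mean of 4992 ± 311 normalized counts in WW and 4637 ± 124 in Water-Ethanol, and of 4595 ± 338 in NW and 4831 ± 238 in NE (SD, n = 4 mice a group, as in the means that follow). The 4 WW mice had 4581, 5122, 5313 and 4950.5, and the 4 Water-Ethanol mice had 4749.7, 4683, 4461 and 4653. The lowest Water-Ethanol mouse, at 4461, was below the WW range and the other 3 lay in its lower part, so the groups overlapped. The LFC in Water-Ethanol against WW was -0.10 (95% interval -0.20 to -0.00, adjusted p = 0.241 by edgeR's quasi-likelihood test with Benjamini-Hochberg adjustment over all genes tested, as for the adjusted p-values that follow). In NW against WW the LFC of Nr3c1 was -0.12 (-0.25 to 0.01, adjusted p = 0.621), and in NE against NW it was 0.07 (-0.05 to 0.19, adjusted p = 0.629). The change with ethanol in nicotine drinkers minus that in water drinkers, the interaction, was 0.18 on the log2 scale for Nr3c1 (0.02 to 0.34; unadjusted p = 0.0287, adjusted p = 0.71), so it did not pass.

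Nr3c2, on chromosome 8 from 76902508 to 77243639 on the plus strand, had a coefficient of variation of 2.80 to 3.90% within groups. The WW mice had 1239.9, 1298, 1320.5 and 1244 normalized counts and the NW mice 1189, 1239, 1203 and 1154. Every NW mouse was below every WW mouse, the closest pair being 1239 and 1239.9. The LFC of Nr3c2 was -0.10 (SE 0.0464, adjusted p = 0.615), and the exact two-sided permutation p was 0.0286, the smallest that 4 against 4 mice can give. Among all genes tested in that comparison, 5.98% had groups that did not overlap. Water-Ethanol had 1230.3 ± 34.5 and NE 1235 ± 48.1, and their 95% intervals against WW, -0.14 to 0.04 and -0.14 to 0.05, included 0.

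Sgk1 was the responsive gene with the largest difference in counts between Water-Ethanol and WW. It lies on chromosome 10 from 21882184 to 21999902 on the plus strand. The WW mice had 2205, 1755, 1924 and 1664 normalized counts, the NW mice 1426, 1564, 2339 and 1941, the Water-Ethanol mice 1913, 2505, 2869 and 2767, and the NE mice 2343, 2000.3, 2061 and 1647. In Water-Ethanol, 3 of 4 mice were above the highest WW mouse, while mouse 13 fell within the WW range. The mean was 2514 ± 429 against 1887 ± 238 in WW, an LFC of 0.42, or 33.7% higher. Without Water-Ethanol mouse 13 the LFC was 0.53, and without WW mouse 18, the highest of its group, it was 0.50. In the mice with nicotine, NE against NW, which shares no mice with the previous comparison, the LFC of Sgk1 was 0.15 (-0.15 to 0.45, adjusted p = 0.698). That value was 0.30 without NW mouse 10 (adjusted p = 0.286). The interaction for Sgk1 was -0.26 (-0.69 to 0.17, adjusted p = 0.857), so the ethanol differences with and without nicotine were not shown to differ. The interaction takes in the same Water-Ethanol mice, in which Sgk1 was known to be high.

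Among ethanol drinkers, Sgk1 had 2013 ± 286 normalized counts in NE against 2514 ± 429 in Water-Ethanol. The LFC was -0.32 (-0.57 to -0.08, adjusted p = 0.834), and only the lowest NE mouse was below the Water-Ethanol range. This comparison uses the Water-Ethanol mice in which Sgk1 was known to be high. In NW against WW the LFC was -0.06 (-0.36 to 0.25, adjusted p = 0.936). It moved to -0.21 without NW mouse 10 and to 0.03 without WW mouse 18.

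Hif3a had a coefficient of variation of 13.5 to 43.8% within groups. It lies on chromosome 7 from 17030993 to 17062427 on the minus strand. The WW mice had 234, 147, 109 and 120.3 normalized counts, the NW mice 114, 90.9, 242 and 196, the Water-Ethanol mice 174, 209, 242 and 214, and the NE mice 153, 83.2, 132 and 120.4. All 4 NE mice were below all 4 Water-Ethanol mice, with 122 ± 29.1 against 209.7 ± 28.2. The LFC in NE against Water-Ethanol was -0.77 (SE 0.15; 95% interval -1.09 to -0.45) and the change -41.5%. The unadjusted p was 0.000146, but over all genes tested the adjusted p was 0.834. The exact two-sided permutation p was 0.0286, and it was 0.429 after Benjamini-Hochberg adjustment over the 45 exact tests of 9 genes in 5 comparisons. By other tests on the same counts the adjusted p was 0.0118 (DESeq2) and 0.00306 (edgeR's likelihood-ratio test), and it ranged from 0.172 to 0.998 when each mouse was left out in turn. Groups that did not overlap were seen in 3.49% of all genes in NE against Water-Ethanol.

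In Water-Ethanol against WW the LFC of Hif3a was 0.47 (0.04 to 0.90, adjusted p = 0.222). Here WW mouse 18, at 234, lay inside the Water-Ethanol range, and without it the LFC was 0.74 with an adjusted p of 0.0432. In NE against NW the LFC was -0.38 (-0.97 to 0.21, adjusted p = 0.601), and in NW against WW it was 0.07 (-0.60 to 0.75). Without NW mouse 10 these were -0.12 and -0.19. The second was also -0.02 without WW mouse 21 and 0.35 without WW mouse 18, so its sign depended on single mice. Against WW, the LFC of NE was -0.30 (-0.82 to 0.21, adjusted p = 0.543), and -0.03 without WW mouse 18. The interaction was -0.84 on the log2 scale (-1.63 to -0.05; unadjusted p = 0.0387, adjusted p = 0.718) and did not pass.

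The feedback co-chaperone gene Fkbp5, on chromosome 17 from 28398753 to 28486149 on the minus strand, had 1141, 1020.3, 1029.8 and 1253 normalized counts in WW and 1061, 1427, 1248 and 1243 in Water-Ethanol. A single Water-Ethanol mouse, at 1427, exceeded the WW range. The LFC was 0.17 (-0.02 to 0.36, adjusted p = 0.31). NE mice had 1127, 1031, 1196 and 947, and the LFC against Water-Ethanol was -0.21 (-0.39 to -0.03; unadjusted p = 0.0237, adjusted p = 0.834). In NE against NW Fkbp5 had an LFC of -0.03 (-0.23 to 0.17).

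Zbtb16, on chromosome 9 from 48654297 to 48835945 on the minus strand, had 866 ± 50.9 normalized counts in WW and 997 ± 117 in Water-Ethanol, with 930.1 ± 107 in NW and 963 ± 61.7 in NE. Its LFC against WW was 0.21 in Water-Ethanol (0.04 to 0.38, adjusted p = 0.172) and 0.16 in NE (0.03 to 0.29, adjusted p = 0.207), 2 comparisons that share the WW mice. In each, 3 of the 4 treated mice were above the highest WW mouse, at 915. In NE against Water-Ethanol the LFC was -0.05 (-0.21 to 0.11), unlike the larger negative values of Sgk1, Fkbp5 and Hif3a in that comparison, although differences between genes were not tested.

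Tsc22d3, on the X chromosome from 140539529 to 140600522 on the minus strand, had 2869 ± 91.7 normalized counts in WW and 3036 ± 173 in Water-Ethanol, where 3 of 4 mice were above the WW range. The LFC was 0.09 (-0.01 to 0.18, adjusted p = 0.316). The NE mean was 2883 ± 131 and the NW mean 2736 ± 155, with an LFC of 0.08 between them (-0.03 to 0.19, adjusted p = 0.571).

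Errfi1, on chromosome 4 from 150855091 to 150868880 on the plus strand, had 1177, 1225, 1237 and 1160.2 normalized counts in WW and 1243, 1292, 1357 and 1237 in Water-Ethanol. The groups did not overlap, but the highest WW mouse and the lowest Water-Ethanol mouse both rounded to 1237. The LFC of Errfi1 was 0.10 (0.00 to 0.20, adjusted p = 0.249; exact permutation p = 0.0286), and 10.8% of all genes had groups that did not overlap in this comparison. In NE it had 1229 ± 33.9 and in NW 1158 ± 126, with LFC 0.09 (-0.06 to 0.24, adjusted p = 0.646).

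Cdkn1a, on chromosome 17 from 29090986 to 29100722 on the plus strand, had group means of 619 ± 53.8 in WW and 618 ± 51.4 in Water-Ethanol, with 625 ± 109 in NW and 619.8 ± 68.7 in NE. Its LFC in Water-Ethanol against WW had a 95% interval of -0.16 to 0.16, and in NE against NW of -0.27 to 0.25. In NW the lowest mouse had 465 and the others 647 to 710.3.

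**Figure D2:**
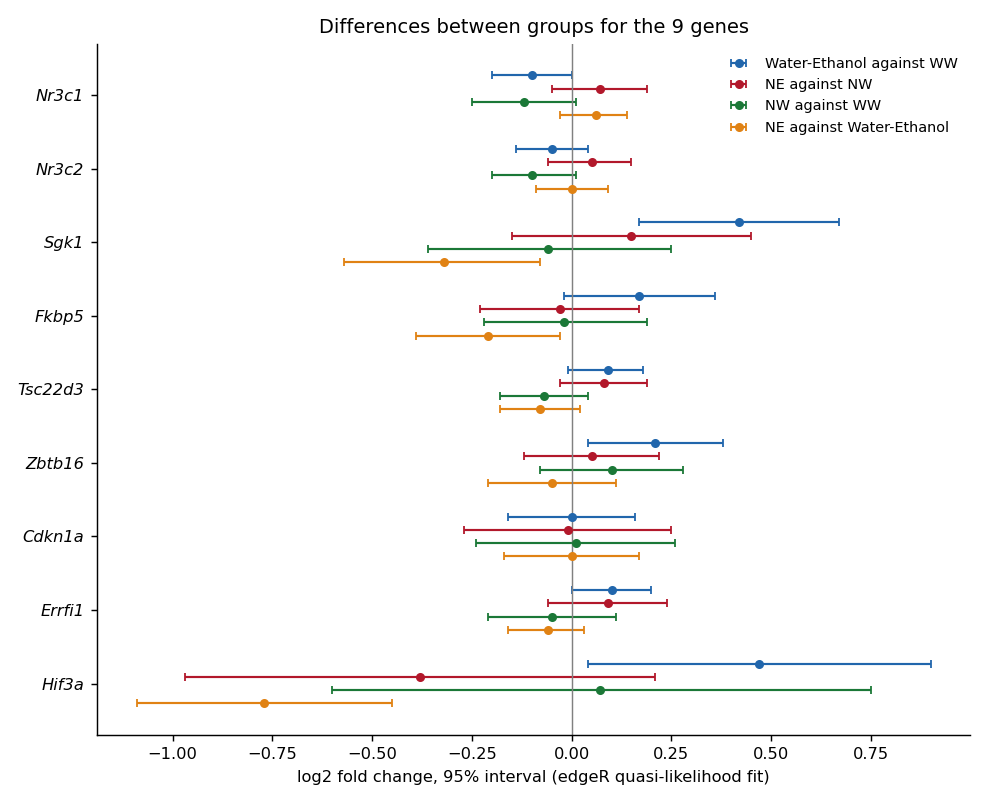
Log2 fold change (x axis) with its 95% interval for each of the 9 genes (y axis) in Water-Ethanol against WW, NE against NW, NW against WW and NE against Water-Ethanol, from edgeR's quasi-likelihood fit of 4 against 4 mice. Sgk1 (0.42) and Hif3a (0.47) lie farthest to the right in Water-Ethanol against WW, and Hif3a (-0.77) lies farthest to the left in NE against Water-Ethanol. The Sgk1 difference in Water-Ethanol against WW was known when the genes were chosen, so its interval is no test.

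Counted over the 9 genes, 0 passed an adjusted p of 0.05 in edgeR's quasi-likelihood test in any of the 8 comparisons. Among all genes tested, the share that passed was 0.457% in Water-Ethanol against WW (70 of 15323) and 0.313% in NE against WW (48 of 15313). It was 4.5% for the ethanol effect averaged over nicotine (702 of 15592), and 0% for NW against WW, NE against Water-Ethanol, NE against NW, the nicotine effect averaged over ethanol and the interaction. Against that background 0 of 9 is no result about these genes. In the 5 comparisons with 0% the genes at an unadjusted p under 0.05 numbered, in the order named, 1295, 888, 1830, 1599 and 1054, and DESeq2 called 125, 2, 93, 110 and 1. At an unadjusted p under 0.05, 5 of 9 members stood in Water-Ethanol against WW, where 19.3% of all genes did, and 3 of 9 in NE against Water-Ethanol, where 5.8% did. Both counts describe a list chosen with results in view. Of the 7 responsive genes, 6 had a positive LFC in Water-Ethanol against WW (median 0.17, against 0.00 over all genes tested) and 6 had a negative LFC in NE against Water-Ethanol (median -0.08, against -0.00). These comparisons share the Water-Ethanol mice, which enter them with opposite sign, so opposite directions are built in and the second count is no separate evidence. In NE against NW, 4 of 7 were positive (median 0.05). For the interaction 0 of 7 were positive (median -0.15, against 0.00), where 50.2% of all genes were. Of these, Tsc22d3 (-0.00), Cdkn1a (-0.00) and Errfi1 (-0.01) lay close to no change. The Water-Ethanol mice enter the interaction with a negative sign too, so this count is no separate evidence either. For the nicotine effect the LFC of Tsc22d3 was -0.07 (-0.15 to -0.00, adjusted p = 0.487), of Sgk1 -0.19 (-0.41 to 0.03, adjusted p = 0.56) and of Hif3a -0.35 (-0.75 to 0.04, adjusted p = 0.554). The Water-Ethanol mice, in which Sgk1 was known to be high, enter the nicotine effect with a negative sign. Its value for Sgk1 is therefore no test. For the ethanol effect the LFC of Sgk1 was 0.28, given as a description. The LFC was 0.08 for Tsc22d3 (0.01 to 0.16, adjusted p = 0.174), 0.13 for Zbtb16 (0.01 to 0.26, adjusted p = 0.198) and 0.09 for Errfi1 (0.00 to 0.19, adjusted p = 0.203). In 3 of 45 gene and comparison pairs the groups did not overlap: Nr3c2 in NW against WW, Errfi1 in Water-Ethanol against WW and Hif3a in NE against Water-Ethanol. The backgrounds in the comparisons with no such member were 10.7% of all genes in NE against WW and 7.41% in NE against NW.

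A wider list held 38 other genes known to respond to glucocorticoid. Of the 37 that could be tested, 25 had a positive LFC in Water-Ethanol against WW (median 0.06), 10 in NE against Water-Ethanol (median -0.07) and 22 in NE against NW (median 0.02), and 0 passed in any comparison. The first and second of these share the Water-Ethanol mice with opposite sign, as above. Over all genes tested the medians were 0.00, -0.00 and 0.00, with 50.6%, 49.5% and 50.7% of genes positive. Lcn2 was not tested, with at most 17 reads in a mouse. Plin4, a lipid droplet coat protein gene, had 177 ± 55.3 normalized counts in WW and 306 ± 85.4 in Water-Ethanol, an LFC of 0.81 (SE 0.222, adjusted p = 0.0935). It had 204 ± 69.9 in NE, an LFC of -0.58 against Water-Ethanol (adjusted p = 0.834). Ccnd1, which encodes cyclin D1 and is known to be repressed by glucocorticoid in several cell types, had 1549 ± 166 in WW and 1278 ± 113 in Water-Ethanol, an LFC of -0.27 (SE 0.0791, adjusted p = 0.104). Dusp1, a phosphatase that inactivates MAP kinases, had 804 ± 319.5 in NW and 1102 ± 232 in NE, an LFC of 0.46 (SE 0.247, adjusted p = 0.476).

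**Figure D3:**
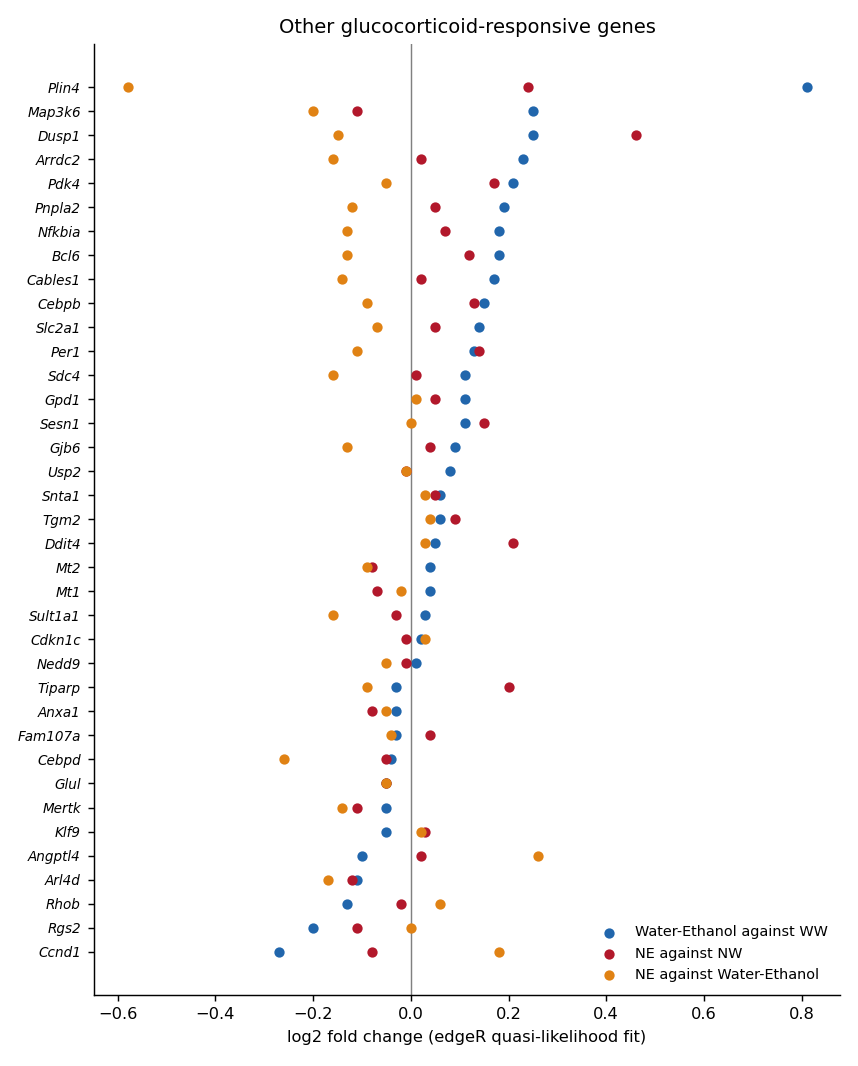
Log2 fold change (x axis) of the 37 tested genes of the wider glucocorticoid-responsive list (y axis, ordered by Water-Ethanol against WW) in 3 comparisons, 1 point per gene and comparison. The blue points, Water-Ethanol against WW, lie to the right of 0 for 25 genes and the orange points, NE against Water-Ethanol, for 10; none of them passed the test.

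Of the 83 tested genes of all the wider lists, 3 passed for the ethanol effect (3.61%, against 4.5% of all genes) and 1 in NE against WW (1.2%, against 0.313%), which is no result about the lists. The 4 calls follow with their values. Ptges3 encodes p23, a co-chaperone that stabilizes the hormone-binding state of the receptor. It had 4842 ± 235 normalized counts in WW and 4167 ± 27.9 in NE, every NE mouse being below every WW mouse (10.7% of all genes tested had groups without overlap there), and it fell by 0.21 on the log2 scale (coded LFC -0.21; SE 0.0383, adjusted p = 0.0453). Over the other fits and with each mouse left out, its adjusted p ranged from 0.000224 to 0.347. With the main fit counted, Ptges3 passed in 7 of 21 fits. It was the 1 call among 14 chaperone genes, of which 6 were positive and 8 negative in NE against WW (median -0.04). Hspa1b and Hspa1a, inducible heat shock genes that are near-identical copies, so that the split of reads between them is uncertain, had an LFC in Water-Ethanol against WW of 0.55 (adjusted p = 0.104) and 0.42 (adjusted p = 0.186). In NE against NW they had 0.25 (adjusted p = 0.64) and 0.20 (adjusted p = 0.625).

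Ncoa2, a p160 coactivator of steroid receptors, was higher with ethanol averaged over nicotine, with an LFC of 0.14 (SE 0.0311, adjusted p = 0.0191). Ncoa2 averaged 4429 ± 163 in WW against 4649 ± 65.3 in Water-Ethanol, and 4193 ± 261 in NW and 4817 ± 154 in NE. Over other settings its adjusted p ranged from 0.00155 to 0.682. With the main fit counted, Ncoa2 passed in 26 of 28 fits, which share most of their mice. All 10 coregulators were positive in NE against WW (median 0.06), none passing there. Among all genes tested in that comparison 51.4% were positive and 0.313% passed. Of the 10, 4 were positive in NW against WW and 8 in Water-Ethanol against WW. There were 8 in NE against Water-Ethanol and 9 in NE against NW. Ncoa3 had an LFC of 0.14 in Water-Ethanol against WW (adjusted p = 0.241), and Ep300, an acetyltransferase, one of 0.15 in NE against NW (adjusted p = 0.291).

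Srd5a1, the steroid 5α-reductase that acts on corticosterone and progesterone among others, was lower with ethanol, with an LFC of -0.21 (SE 0.0467, adjusted p = 0.02). Its means were 424 ± 26.4 in WW and 343 ± 10.7 in Water-Ethanol, and 412 ± 36.1 in NW and 382 ± 13.2 in NE. WW and Water-Ethanol did not overlap, as for 10.8% of all genes tested. The LFC of Srd5a1 was -0.30 in Water-Ethanol against WW (adjusted p = 0.0565) and -0.11 in NE against NW (adjusted p = 0.578). Over other settings the adjusted p of its ethanol effect ranged from 0.00367 to 0.656, and it passed in 26 of 28 fits with the main fit counted. Abcb1a, a P-glycoprotein gene whose product exports some corticosteroids at the blood-brain barrier, was also lower with ethanol, with an LFC of -0.14 (SE 0.0296, adjusted p = 0.0148). Abcb1a averaged 1581 ± 58.1 in WW against 1429.9 ± 63.3 in Water-Ethanol, and 1540.4 ± 37.2 in NW and 1399 ± 31.0 in NE. Over other settings its adjusted p ranged from 0.00163 to 0.354, and it passed in 27 of 28 fits with the main fit counted. With oligodendrocyte and endothelial marker levels as covariates, 3 genes in all passed for the ethanol effect in place of 702. All 3 were higher with ethanol, so Srd5a1 and Abcb1a did not pass there. That fit gave the adjusted p of 0.354 for Abcb1a, whose LFC ranged from -0.15 to -0.12 over all 28 fits. H6pd, which supplies the cofactor for corticosterone regeneration, had an LFC of 0.20 in NE against NW (adjusted p = 0.367). Of this list of 7, 5 were tested, and Hsd11b2 and Serpina6 had at most 3 reads and 1 read in a mouse.

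The remaining lists held no call. Among 6 genes of SGK kinases and their targets, Sgk2 had an LFC of -0.49 in Water-Ethanol against WW (adjusted p = 0.184) and -0.34 in NE against NW (adjusted p = 0.566). Scnn1a, a subunit of the epithelial sodium channel that SGK1 regulates, had -0.14 (adjusted p = 0.5), and Ndrg1, a substrate of SGK1, had -0.11 in NE against NW (adjusted p = 0.477). Among 4 other nuclear receptors for steroids, the progesterone receptor gene Pgr had an LFC of -0.17 in Water-Ethanol against WW (adjusted p = 0.0821) and 0.11 in NE against NW (adjusted p = 0.701). Esr2 had 12.7 ± 3.31 normalized counts in WW, with an LFC of 0.09 in Water-Ethanol (adjusted p = 0.898) and 0.24 in NE against NW (adjusted p = 0.822). Among 7 partners and paralogues of Hif3a, Arnt, the shared dimer partner, had an LFC of 0.21 in Water-Ethanol against WW (adjusted p = 0.143), Epas1 0.15 (adjusted p = 0.269) and Vhl 0.11 in NE against NW (adjusted p = 0.415).

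Relations between the genes from mouse to mouse were computed on log2 CPM with group means removed. Over the 16 mice, Sgk1 and Hif3a had Pearson's r = 0.731 and Spearman's rho = 0.771 (permutation p = 0.00653 and 0.00451, 100000 permutations within groups), and r was positive in 4 of 4 groups. After Benjamini-Hochberg adjustment over the 36 pairs of members the p-values were 0.165 and 0.0842, and 0 of 36 pairs passed for r or rho. Without the 2 mice farthest from the median of Sgk1, NW 10 and Water-Ethanol 13, r was 0.672. Sgk1 had r = 0.652 with Errfi1, 0.606 with Tsc22d3, 0.592 with Fkbp5 and 0.572 with Zbtb16, with rho of 0.624, 0.597, 0.571 and 0.468 permutation p for r of 0.0537, 0.0432, 0.0448 and 0.0665, and adjusted p of 0.239, 0.231, 0.231 and 0.239. Without the farthest 2 mice these r were 0.61, 0.608, 0.474 and 0.259, so the relation with Zbtb16 rested on those mice. Water-Ethanol mouse 13 was the lowest of its group for Sgk1, Fkbp5, Tsc22d3, Zbtb16 and Hif3a and the highest for both receptor genes.

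The mineralocorticoid receptor gene Nr3c2 had negative r with 6 of the other 8 genes. It had r = -0.658 with Hif3a (rho -0.709; permutation p = 0.012 and 0.00468, adjusted 0.165 and 0.0842; r = -0.603 without the farthest 2 mice) and r = -0.641 with Fkbp5 (rho -0.624; permutation p = 0.0196 and 0.0241, adjusted 0.177 and 0.174; r = -0.718). The sign was negative in 4 of 4 groups for both pairs. Nr3c1 had r = 0.493 with Nr3c2 (rho 0.632; permutation p = 0.0865 and 0.02, adjusted 0.24 and 0.174; r = 0.465 without the farthest 2 mice) and r = -0.239 with Sgk1 (rho -0.35; permutation p = 0.457 and 0.246, adjusted 0.567 and 0.341).

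**Figure D4:**
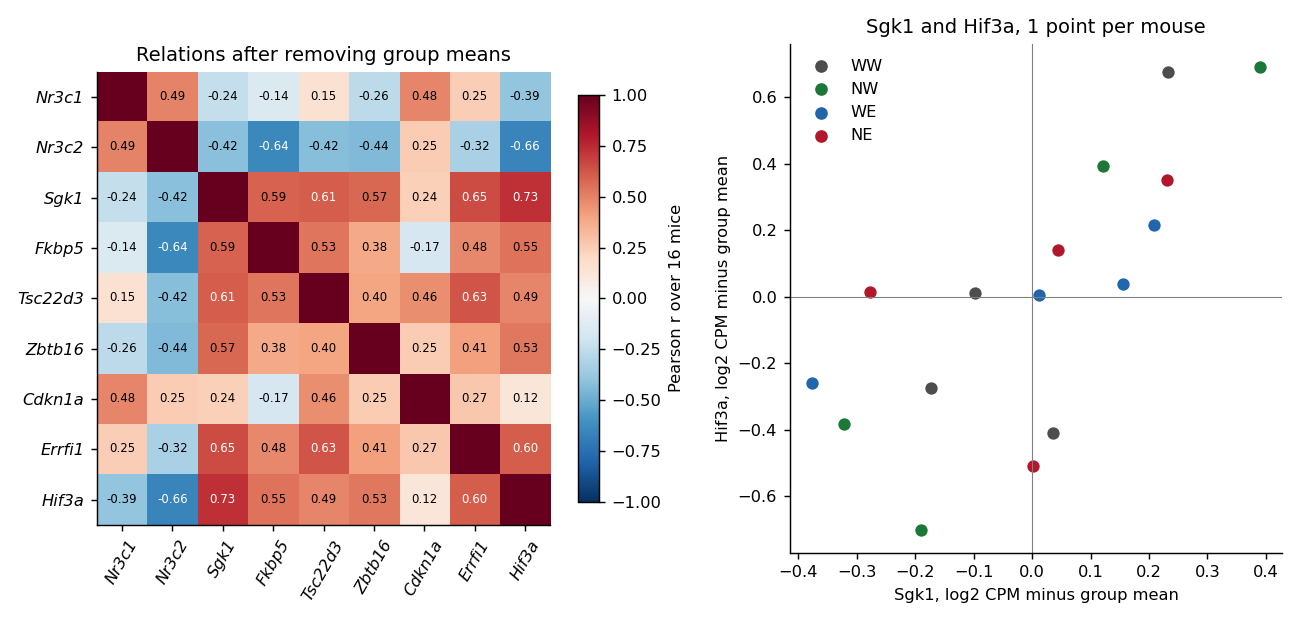
Left, Pearson's r (color, -1 to 1) between each pair of the 9 genes over 16 mice on log2 CPM with group means removed. Right, Hif3a (y axis) against Sgk1 (x axis) on that scale, 1 point per mouse in the color of its group, blue being Water-Ethanol; the points run from lower left to upper right, r = 0.731.

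As a description, Sgk1 had a positive r with 30 of the 37 tested genes of the wider responsive list (median 0.37), against 7855 of 15591 of all other genes (median 0.00). The highest were Plin4 (0.73) and Nfkbia (0.68) and the lowest Ccnd1 (-0.45), and all of these points share the same 16 libraries. The pattern was not particular to Sgk1. Positive r numbered 34 of 37 for Tsc22d3 (median 0.44), 32 for Errfi1 (0.42), 32 for Fkbp5 (0.34) and 29 for Hif3a (0.29). They numbered 26 for Zbtb16 (0.19), 23 for Cdkn1a (0.06) and 23 for Nr3c1 (0.09). For Nr3c2 the r was positive with 7 of 37 (median -0.21), against 8248 of 15591 (median 0.03). Of all 15592 genes tested, those most like Sgk1 were Atg13 (r = 0.882, rho = 0.856), Osbpl11 (r = 0.865, rho = 0.859) and Mxd1 (r = 0.849, rho = 0.771). Those most like Nr3c1 were C920025E04Rik (r = 0.904, rho = 0.909), Cnst (r = 0.904, rho = 0.879) and Fam20b (r = 0.902, rho = 0.941). They are the top of a ranking and carry no test.

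In bulk tissue, fewer cells of a type and less RNA per cell cannot be told apart. Marker levels of several cell types are given here beside these values, and no relation of a member with a marker list passed after adjustment. Of 12 marker lists compared in 5 pairs of groups, the 7 mural and fibroblast markers had a mean log2 level 0.28 lower in Water-Ethanol and in NE than in WW (coded differences -0.28 and -0.28; exact permutation p = 0.0286 each). The 7 olfactory bulb markers had differences against WW of -0.31 in NW and -0.38 in NE (exact permutation p = 0.0286 each) and of -0.39 in Water-Ethanol (exact permutation p = 0.229). The 7 microglia markers had -0.23 in both Water-Ethanol and NE against WW (exact permutation p = 0.0857 each). The 10 oligodendrocyte markers had -0.22 in Water-Ethanol and -0.17 in NE against WW (exact permutation p = 0.0857 each). The smallest of the 60 p-values after Benjamini-Hochberg adjustment was 0.429. Summed normalized counts of the mural and fibroblast markers ranged in WW from 5865 to 8531, in NE from 5363 to 5713 and in Water-Ethanol from 5164 to 5939.9. The 10 oligodendrocyte markers were all detected, with summed normalized counts of 224463 to 270684 in WW, 230169 to 261129.9 in NW, 207302 to 238749 in Water-Ethanol and 219295 to 252943 in NE. With group means removed, their mean log2 level had r = -0.671 with Sgk1 (rho -0.665; permutation p = 0.0125 and 0.0148, adjusted over 27 relations 0.168 and 0.15; r = -0.584 without the farthest 2 mice). With Hif3a it had r = -0.576 (rho -0.541; permutation p = 0.0587 and 0.0705, adjusted 0.226 and 0.277). With Fkbp5 it had r = -0.611 (rho -0.635; permutation p = 0.0261 and 0.0171, adjusted 0.185 and 0.15). The 8 endothelial markers, all detected, had r = -0.638 with Hif3a (rho -0.632; permutation p = 0.00778 and 0.0123, adjusted 0.168 and 0.15), with sums of 8978 to 9331 in WW, 8913 to 9223 in NW, 8227 to 8894 in Water-Ethanol and 8298 to 9038 in NE. The 8 astrocyte markers, all detected, had r = -0.582 with Sgk1 (rho -0.529; permutation p = 0.0411 and 0.0583, adjusted 0.185 and 0.277) and r = -0.614 with Zbtb16 (rho -0.406; permutation p = 0.0327 and 0.154, adjusted 0.185 and 0.378). Without the farthest 2 mice these r were -0.626 and -0.354. With the oligodendrocyte and endothelial lists as covariates the ethanol effect on Sgk1 was -0.02, and the LFC of Sgk1 in Water-Ethanol against WW was 0.29. The LFC of Hif3a was then -0.03 in Water-Ethanol against WW and -0.95 in NE against Water-Ethanol. The part of the cell mix in these results was not tested.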

How the data were processed

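RNA from the whole brains of 16 female mice was sequenced, 1 library per mouse and 4 mice per group, with groups taken from the sample labels. Per the submitters' processing notes, reads were handled with bcl2fastq 1.8.4, FastQC, Trimmomatic 0.32, TopHat2, Cufflinks and Cuffdiff on the build mm10. The authors deposited raw read counts per gene, for which the counting program and its use of strand were not given in the sources used here. The labels name an unstranded kit and the study's methods a stranded one. The authors also deposited FPKM values per gene, made with the Cufflinks tools. Counts were used for tests and FPKM for levels.

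Counts were filtered with filterByExpr, scaled by TMM and tested with edgeR 4.0.16 (quasi-likelihood test; limma 3.58.1 and DESeq2 1.42.0 as alternatives; R 4.3.3), with Benjamini-Hochberg adjustment over all genes tested and a threshold of 0.05. All 9 genes passed the filter, and a gene low in every group could not. The 5 pairwise comparisons used the mice of both groups, and the ethanol effect, nicotine effect and interaction used all 16. The scripts were tested on simulated data. Relations used 100000 permutations within groups, in Python 3.11.15 with numpy 2.4.6, scipy 1.17.1 and pandas 2.3.3, and figures were drawn with matplotlib 3.10.9.

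The 9 members and the wider and marker lists were chosen with earlier results of these data known. Named from the wider lists were every gene past the threshold in any comparison and, per list, the 2 largest absolute LFC in Water-Ethanol against WW and in NE against NW. For Sgk1 and Nr3c1, the 3 genes with the highest r were named. Alternatives covered scaling, tests, filters, pseudocounts, covariates and leaving out each mouse. The study's methods state that mice were housed singly, and nothing in the labels says how they were batched. The p-values set group differences against the spread between these mice only.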

Additional observations from a re-analysis of the deposited data

How the results depend on the processing

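Counts of all genes past the threshold depended on the test. DESeq2 and edgeR's likelihood-ratio test called 125 and 113 genes in NW against WW in place of 0, 583 and 620 in Water-Ethanol against WW in place of 70, and 508 and 375 in NE against WW in place of 48. They called 2 and 2 in NE against Water-Ethanol, 93 and 106 in NE against NW, 110 and 54 for the nicotine effect and 1 and 1 for the interaction, each in place of 0, and DESeq2 called 1077 for the ethanol effect in place of 702. One fit of all 16 mice gave 112 in NW against WW, 28 in Water-Ethanol against WW and 57 in NE against NW. Limma on log2(FPKM + 0.1), on log2(FPKM + 1) and on the latter without a filter gave 0, 0 and 0 in Water-Ethanol against WW, 22, 20 and 1 in NE against WW, 1, 1 and 1 in NE against Water-Ethanol and 3, 3 and 1 in NE against NW. Without a filter on counts there were 143 in Water-Ethanol against WW and 1 in NE against Water-Ethanol. A GC content correction, chosen after the data were examined, gave 39 in Water-Ethanol against WW and 11 in NE against WW. Cerebellum and olfactory bulb covariates gave 7 in NW against WW, 0 in NE against WW and 1 for the interaction. Oligodendrocyte and endothelial covariates gave 0 in Water-Ethanol against WW, 0 in NE against WW and 3 for the ethanol effect. The causes were not tested. With each mouse left out, counts ranged from 0 to 797 in Water-Ethanol against WW and from 0 to 283 in NE against WW, both highest without WW mouse 21. They ranged from 0 to 1 in NE against Water-Ethanol, from 280 to 899 for the ethanol effect (highest without NW mouse 10) and from 0 to 49 for the nicotine effect (highest without NW mouse 11).

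Of the 9 members, 1 was called in Water-Ethanol against WW by the likelihood-ratio test, and 1 in NE against Water-Ethanol by DESeq2 and by the likelihood-ratio test (Hif3a). With each mouse left out, 0 to 1 was called in Water-Ethanol against WW (Hif3a without WW mouse 18) and 0 to 1 for the ethanol effect (without NW mouse 10). The likelihood-ratio call in Water-Ethanol against WW and the ethanol effect call were both of Sgk1, whose difference was known when the genes were chosen, so they are no test of it. With oligodendrocyte and endothelial covariates, the LFC in Water-Ethanol against WW became 0.03 for Nr3c1 and -0.03 for Hif3a, and the ethanol effect on Sgk1 became -0.02. These were the 3 sign changes among the 16 member values whose 95% interval excluded 0, and leaving out a mouse gave 0. Over all 72 member values the sign changed in 65 of 837 values under other settings, 20 of them with these covariates, and in 102 of 792 with a mouse left out. No paired analysis was possible because the mouse numbers in the labels are not shared between groups.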
